A study of Mus musculus with 6 samples.

Results

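Sox9, Sox5, Sox6, Acan, Hapln1, Runx2, Sp7, Alpl, Ibsp and Spp1 are genes by which cells take, or show that they have taken, a cartilage or bone fate. These 10 genes were chosen by symbol, and all 10 were found among the 24413 genes of the deposited FPKM table (fragments per gene, scaled to gene length and library depth). With medium conditioned by dorsal root ganglion (DRG) cultures, Spp1 rose 1.72-fold and Sox9 rose 1.26-fold in mouse tendon cells. Runx2, the main bone factor, had nearly the same mean in both media. Alpl and Acan lay lower in all 3 conditioned libraries than in any control library, without passing the test or without being tested. Acan was low in both media, with 58 fragments in all control and 28 in all conditioned libraries. The other 5 genes were low as well, down to Ibsp with 0 or 1 fragment per library.

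The cells came from the Achilles tendons of 3 male mice aged 12 weeks, of genotype Tppp3ECE/+;R26RtdT-CreERT2;Scx-GFP, and were sorted on tdT and GFP fluorescence. Control cells were kept for 24 h in medium with 1% FBS. The other group was kept for 24 h in DRG conditioned medium, also with 1% FBS, from lumbar ganglia of 3 male C57BL/6J mice aged 12 weeks. The ganglion cultures had been held for 4 to 5 days, first with the antimitotic agents 5-fluoro-2-deoxyuridine and uridine at 20 µM, and their medium was passed through a 0.22 µm filter. Each group had 3 libraries, called biological replicates by the submitters. Which animal gave which library is not labelled, and the p-values therefore rest on library-to-library spread, part of which may be technical. Tppp3 itself, which the genotype names, stood at a mean of only 0.906 FPKM here, and the cause was not tested.

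Chondrocytes depend on the transcription factor SOX9, which works with SOX5 and SOX6 on the genes of cartilage matrix. Osteoblasts depend on RUNX2 and, after it, on SP7 (osterix), and then make alkaline phosphatase, bone sialoprotein and osteopontin. Tendon cells share an origin with cartilage where tendon meets bone, and injured tendons can form cartilage and bone in the wrong place. Mineral is held back by pyrophosphate, which alkaline phosphatase destroys, and by proteins such as osteopontin.

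Recovered depth was 18774554 to 26061244 fragments per library. Of 11678 genes tested with limma, 763 passed (6.53%), 472 higher (4.04%) and 291 lower (2.49%) with conditioned medium. Tendon markers were present, with means over the 6 libraries of 2999 FPKM for Col1a1, 121 for Fmod and 77.9 for Egr1. Of the 9 tendon markers, 5 of 8 tested were lower. The summed level of the 9 was 3594 to 3673 FPKM in the controls and 2862 to 2937 in conditioned libraries, most of it Col1a1. In bulk RNA, fewer cells of a type and less RNA per cell cannot be told apart. Values below are FPKM as mean ± SD with n = 3 libraries per group. Log2 fold changes are conditioned minus control of log2(FPKM + 1), with the standard error (SE) of limma, and are smaller than the true change where a gene is low.

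Of the 10 genes, 4 had a mean of at least 1 FPKM and were tested, and 6 were not. Spp1 and Sox9 passed, both upward, and Runx2 and Alpl did not pass, against 6.53% of all genes tested. The members had been proposed with results of these data known, so their count is a description. The groups did not overlap for 4 of the 10 genes, 2 higher and 2 lower, against 17.6% of all genes in the table (8.86% higher and 8.78% lower). The median log2 fold change of the 4 tested genes was 0.18, beside 0.0052 over all genes tested.

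**Figure D1:**
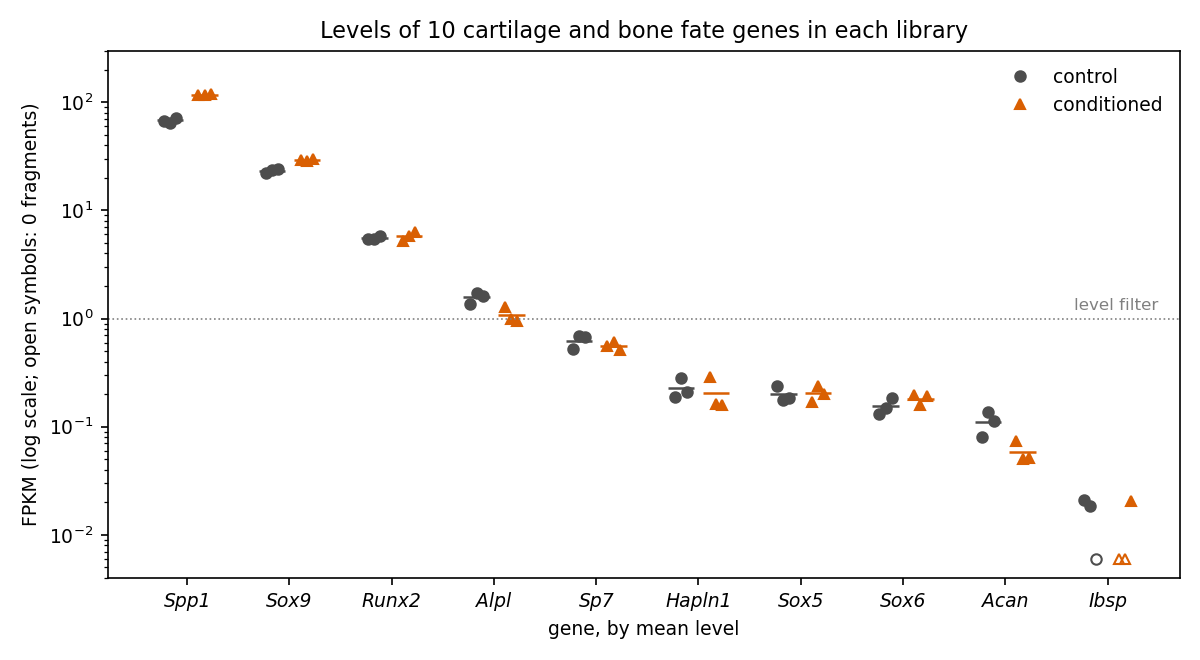
FPKM (log axis) of the 10 genes in each of the 3 control libraries (grey circles) and 3 conditioned libraries (orange triangles), with bars at group means and open symbols for libraries with 0 fragments. Conditioned libraries lie above all controls for Spp1 (116 to 120 against 65.0 to 72.3) and Sox9, and below them for Alpl and Acan.

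The levels spanned the range from Spp1, with a mean over the 6 libraries of 93.0 FPKM, through Sox9 (26.4), Runx2 (5.67), Alpl (1.32), Sp7 (0.592), Hapln1 (0.215), Sox5 (0.202), Sox6 (0.168) and Acan (0.0844) to Ibsp (0.00997). Neighbours in this order did not overlap over the 6 libraries, with the exceptions of Hapln1 and Sox5, Sox5 and Sox6, and Sox6 and Acan. Only 2.32% of the genes in the table had a higher control mean than Spp1, and 8.21% a higher one than Sox9. At the other end, 91.5% had a higher control mean than Ibsp. The plot of levels by library shows these steps together with the small spread within each group.

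Sox9, the transcription factor that starts and keeps the cartilage program, lies on chromosome 11 from 112782224 to 112787760 (mm10) with 3 exons. It had 22.2, 23.5 and 24.4 FPKM in control replicates 1, 2 and 3, and 29.3, 28.7 and 30.2 FPKM in conditioned replicates 1, 2 and 3. Every conditioned library was above every control library. The means were 23.4 ± 1.12 and 29.4 ± 0.774 FPKM, a log2 fold change of 0.32 ± 0.05 SE (95% confidence interval 0.22 to 0.43, adjusted p = 0.0048 in limma). Behind these values stood 6715 fragments in the controls and 7803 in conditioned libraries. The call held in all 16 other settings, with log2 fold changes of 0.28 to 0.35.

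Sox5 and Sox6, which lack an activation domain of their own and help SOX9 to bind its enhancers, were low. Sox5 (chromosome 6 from 143828425 to 144781977) had 0.237, 0.178 and 0.186 FPKM in the controls and 0.169, 0.240 and 0.201 in conditioned replicates. Sox6 (chromosome 7 from 115470872 to 116038796) had 0.131, 0.149 and 0.184 FPKM in the controls and 0.195, 0.158 and 0.192 in conditioned replicates. For both genes the groups overlapped. Neither reached the level filter. In voom on recovered fragments with no level filter, an added fit, the log2 fold change of Sox5 was 0.02 (95% interval -0.43 to 0.46) and that of Sox6 was 0.27 (-0.21 to 0.74). A shift of the size seen for Sox9 was therefore not detectable for either gene at this depth. Sox5 shares 1330 exonic bases with the antisense gene Sox5os1. No strand setting is given in the sources used here, so reads of the pair cannot be told apart.

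Among the 20 SOX genes listed, 14 were in the table and 5 were tested, with Sox9 higher, 0 lower and 4 not passing (4.04% of all genes tested were called higher). Sox4, at a level like that of Sox9 but of another subgroup, had 27.8 ± 1.08 FPKM in the controls and 25.4 ± 1.32 FPKM in conditioned libraries (adjusted p = 0.21 in limma). Sox12 had 3.82 ± 0.311 and 4.20 ± 0.384 FPKM (adjusted p = 0.50 in limma). Sox8, the close relative of Sox9 named here after its values were seen, had 59 fragments in all control and 25 in all conditioned libraries, below the level filter.

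Acan and Hapln1 encode aggrecan, the large proteoglycan that gives cartilage its swelling pressure, and the link protein that fixes aggrecan to hyaluronan. Acan (chromosome 7 from 79053483 to 79115099) had 14, 27 and 17 fragments in control replicates 1, 2 and 3 and 12, 7 and 9 in conditioned replicates. This corresponds to 0.0807, 0.138 and 0.113 FPKM in the controls and 0.0738, 0.0498 and 0.0513 FPKM in conditioned libraries. All conditioned values were below all control values, but with so few fragments the voom log2 fold change of -0.88 had a 95% interval from -1.84 to 0.09 (adjusted p = 0.36). Hapln1 (chromosome 13 from 89539796 to 89611652) had 26, 44 and 25 fragments in the controls and 37, 18 and 22 in conditioned replicates. Its groups overlapped, and its voom log2 fold change was -0.21 (-0.89 to 0.47).

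Versican, encoded by Vcan, was the one lectican or link protein gene of 7 in the table that was tested. Vcan had 80.4 ± 7.76 FPKM in the controls and 75.7 ± 2.49 FPKM in conditioned libraries (adjusted p = 0.57 in limma), far above Acan per length. Of 19 genes that cleave aggrecan or build and sulfate its chains, 16 were tested, with 1 higher, 3 lower and 12 not passing. The share passing over all genes tested was 6.53%. The aggrecanases Adamts1 and Adamts4 fell by 0.23 and 0.22 on the log2 scale, Papss2, which makes the sulfate donor, fell by 0.21, and Ugdh, which makes UDP-glucuronate, rose by 0.17. The highest not passing were Chpf (log2 fold change -0.07) and the protease inhibitor Timp3 (-0.15, adjusted p = 0.11 in limma). Timp3 passed without control replicate 3 (0.023) and in both voom fits (0.0092 and 0.0028). Adamts1 kept its call in all 16 other settings. Papss2 and Ugdh lost theirs without any 1 of the 6 libraries (adjusted p = 0.051 to 0.14), and Adamts4 without control replicate 1 or 2 or conditioned replicate 1 or 3 (0.06 to 0.11).

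Of 22 cartilage matrix genes listed, 19 were in the table and 6 were tested, with 0 higher, 3 lower and 3 not passing. The list median was -0.15, and 2.49% of all genes tested were called lower. Col2a1, the main collagen of cartilage, had 58.4, 61.9 and 64.3 FPKM in the controls and 44.8, 42.2 and 42.7 FPKM in conditioned replicates. No conditioned library reached the lowest control, and Col2a1 fell by 0.50 on the log2 scale (SE 0.05, adjusted p = 4.4e-04 in limma). Col11a1, a chain of its partner collagen XI, fell by 0.25 and Cilp, a matrix protein of cartilage and tendon, by 0.19. The Cilp call was lost without control replicate 2 or any conditioned replicate (adjusted p = 0.053 to 0.062). Comp (48.5 ± 2.96 and 45.1 ± 1.96 FPKM), which binds collagens, and lubricin, encoded by Prg4 (21.5 ± 0.768 and 21.6 ± 0.468 FPKM), did not pass. The 13 untested genes had means of at most 0.514 FPKM, among them Acan and Hapln1. Among the 8 chondrocyte markers in the table Col2a1 was the only one tested, ahead of Col9a2 (mean 0.514 FPKM) and Col11a2 (0.400), and Matn1 had 2 fragments in the controls and 0 in conditioned libraries.

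Of 21 cartilage regulators, 11 were tested, with Sox9 higher, 0 lower and 10 not passing, beside 6.53% of all genes called. At an unadjusted p below 0.05 in limma were 5 of the 11. In voom 2 passed, Sox9 and Wwp2 (named after its values were seen), beside 9.73% of all genes. The list median was 0.07. The highest of those not passing were Zfp219, a SOX9 partner (13.5 ± 1.02 and 13.9 ± 0.630 FPKM), and the repressor Zeb1 (13.1 ± 1.24 and 13.0 ± 0.378 FPKM).

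**Figure D2:**
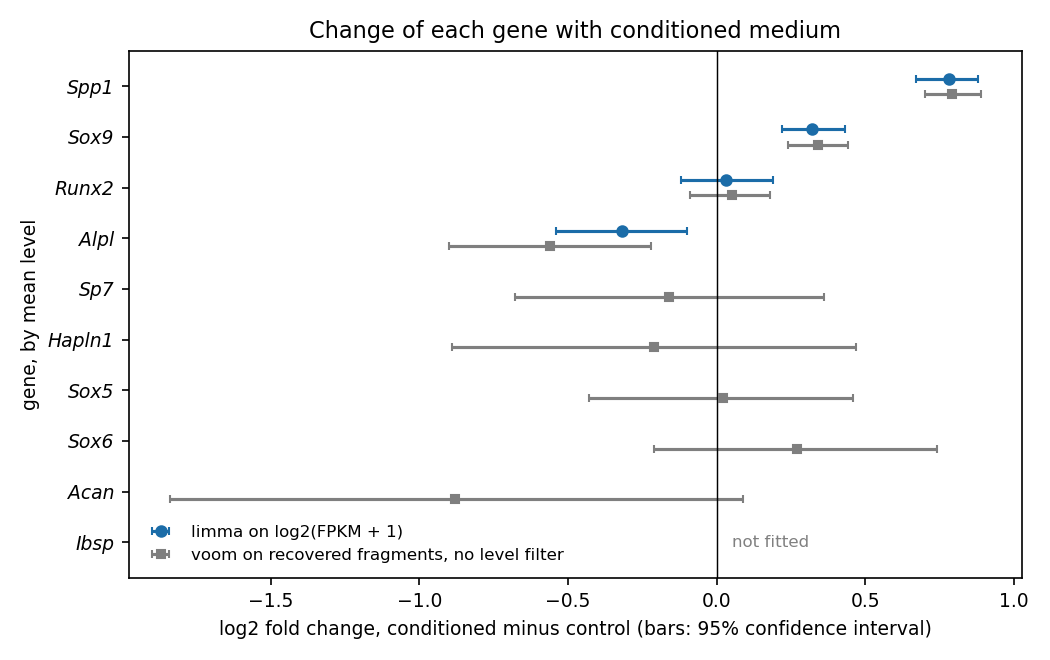
Log2 fold change of each gene, conditioned minus control, with 95% confidence intervals, from limma on log2(FPKM + 1) for the 4 tested genes (blue circles) and from voom on recovered fragments with no level filter (grey squares). The intervals of Spp1 and Sox9 lie above 0, those of Alpl below it, and those of Runx2 and of the 5 low genes that could be fitted include 0.

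Runx2, the factor without which no bone forms, had 5.50, 5.49 and 5.78 FPKM in the controls and 5.21, 5.77 and 6.30 FPKM in conditioned replicates. The lowest and the highest value were both from conditioned libraries, so the groups overlapped fully. The log2 fold change was 0.03 ± 0.07 SE with a 95% interval from -0.12 to 0.19 (adjusted p = 0.84 in limma), which leaves out a change as large as that of Sox9. Runx2 lies on chromosome 17 from 44495987 to 44814797. It shares 519 exonic bases (5.87% of its exonic length) with the antisense gene Runx2os1, which had a mean of 0.561 FPKM.

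The ratio of Sox9 to Runx2 FPKM was 4.03, 4.28 and 4.22 in control replicates and 5.63, 4.97 and 4.80 in conditioned replicates 1, 2 and 3. The ratio was higher in every conditioned library, with means of 4.18 ± 0.131 and 5.13 ± 0.437. As Runx2 had nearly the same mean in both media, this ratio mostly restates the rise of Sox9 and is no separate evidence.

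In the RUNX family and its partners, 5 of 6 genes in the table were tested, with 1 higher, 0 lower and 4 not passing. Among all genes tested, 4.04% were called higher. Runx1, the family member best known from blood formation and also active in early cartilage cells, had 12.8, 12.3 and 11.7 FPKM in the controls and 14.9, 14.7 and 15.2 in conditioned replicates. All conditioned libraries were above the controls, and Runx1 rose by 0.27 (SE 0.05, adjusted p = 0.013 in limma). Leaving out control replicate 2 or any conditioned replicate ended the call (adjusted p = 0.051 to 0.057). Cbfb, the shared DNA-binding partner of the RUNX proteins, had 22.8 ± 0.532 and 21.5 ± 0.838 FPKM and did not pass.

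Sp7, which acts after Runx2 in osteoblasts, had 0.520, 0.684 and 0.671 FPKM in the controls and 0.555, 0.610 and 0.514 FPKM in conditioned replicates (chromosome 15 from 102356606 to 102367182). The groups overlapped, and the voom log2 fold change was -0.16 (-0.68 to 0.36). Of the SP factors, 4 were tested and 0 passed in limma or voom (0 also at an unadjusted p below 0.05), the highest being Sp3 (17.6 ± 0.927 and 16.4 ± 0.454 FPKM) and Sp1 (12.4 ± 0.635 and 12.3 ± 0.502 FPKM). Of 22 osteoblast regulators, 14 were tested and 0 passed in limma, with 3 at an unadjusted p below 0.05 and 1 passing in voom (Lrp5, named after its values were seen). Over all genes tested, 6.53% were called in limma and 9.73% in voom, so 0 calls among so few genes say little. Atf4 had 66.5 ± 3.05 and 68.3 ± 2.43 FPKM, and Twist1, which restrains RUNX2, had 45.2 ± 1.94 and 40.4 ± 2.46 FPKM (adjusted p = 0.14 in limma, and 0.037, past the threshold, with quantile normalization).

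Alpl, tissue-nonspecific alkaline phosphatase, had 1.36, 1.74 and 1.62 FPKM in the controls and 1.27, 0.988 and 0.950 FPKM in conditioned replicates (chromosome 4 from 137741733 to 137796384). All 3 conditioned libraries were below all 3 controls, though conditioned replicate 1 came close to control replicate 1. These values rested on 443 fragments in the controls and 276 in conditioned libraries. Alpl did not pass in limma, with a log2 fold change of -0.32 ± 0.10 SE (unadjusted p = 0.011, adjusted p = 0.11). With a pseudocount of 0.1 in place of 1, the log2 fold change was -0.52 with the same adjusted p of 0.11. Voom on recovered fragments gave -0.57 ± 0.17 SE and an adjusted p of 0.037, past the threshold, in a fit that called 9.73% of all genes. Alpl was the one alkaline phosphatase gene of the 4 listed that was in the table.

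Genes that set the balance of pyrophosphate and mineral had 4 higher, 2 lower and 6 not passing of 12 tested. Over all genes tested, 4.04% were called higher and 2.49% lower. The 4 higher genes include Spp1, and the list was drawn up with earlier results of these data known. Enpp1, which makes pyrophosphate, had 9.47, 8.58 and 8.38 FPKM in the controls and 10.5, 10.4 and 11.5 FPKM in conditioned replicates, and rose by 0.26 (adjusted p = 0.042 in limma). Ank, which exports ATP and pyrophosphate, had 68.8, 70.7 and 70.1 FPKM in the controls and 78.5, 79.9 and 78.2 in conditioned replicates, and rose by 0.17 (adjusted p = 0.016). For both genes every conditioned library exceeded every control. The Enpp1 call was lost without control replicate 2 or 3 or any conditioned replicate (adjusted p = 0.095 to 0.14), and the Ank call without control replicate 2 or any conditioned replicate (0.051 to 0.088) and with quantile normalization (0.069). The transporter gene Abcc1 rose by 0.19, and lost its call without any 1 of the 6 libraries (0.051 to 0.13). The annexins Anxa2 and Anxa5, found on matrix vesicles, fell by 0.20 and 0.23, and Anxa2 lost its call without control replicate 2 or conditioned replicate 2 or 3 (0.05 to 0.083). The highest of those not passing were Bgn (838 ± 25.6 and 822 ± 19.1 FPKM) and Anxa6 (182 ± 4.66 and 172 ± 1.82 FPKM).

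The ratio of Enpp1 to Alpl FPKM was 4.93 to 6.99 in control and 8.28 to 12.0 in conditioned libraries. The ratio of Ank to Alpl was 40.7 to 50.7 in control and 62.0 to 82.3 in conditioned libraries. Every conditioned library was higher for Enpp1 and Ank and lower for Alpl, so neither ratio could overlap between the groups. The ratios add no separate evidence, and both carry the counting error of Alpl.

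**Figure D3:**
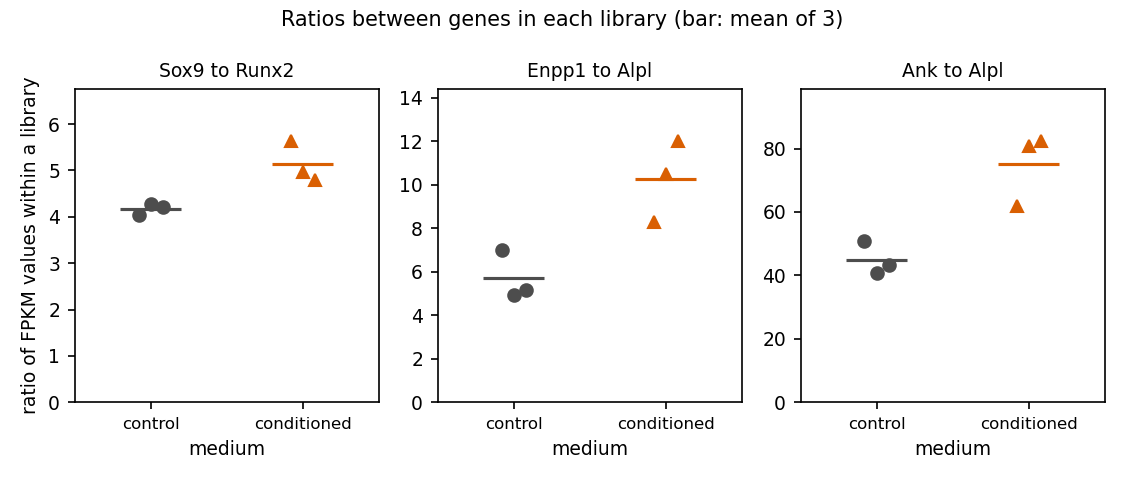
Ratio of the FPKM values of gene pairs within each library, for 3 control (grey circles) and 3 conditioned libraries (orange triangles), with bars at group means and axes from 0. Conditioned libraries lie higher for Sox9 to Runx2 (4.80 to 5.63 against 4.03 to 4.28), Enpp1 to Alpl and Ank to Alpl. For the pairs with Alpl this follows from the values of each gene, and for Sox9 to Runx2 it mostly restates the rise of Sox9.

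Spp1 encodes osteopontin, a secreted phosphoprotein of bone that binds integrins and CD44 and restrains crystal growth. It had 67.7, 65.0 and 72.3 FPKM in the controls and 117, 116 and 120 FPKM in conditioned replicates 1, 2 and 3. The conditioned libraries stood together well above the controls. The means were 68.3 ± 3.71 and 118 ± 2.46 FPKM, a log2 fold change of 0.78 ± 0.04 SE (95% interval 0.67 to 0.88, adjusted p = 3.6e-05 in limma). The fragments numbered 7804 in control and 12431 in conditioned libraries. The call held in all 16 other settings, with log2 fold changes of 0.73 to 0.82. Gm42793, a gene model on the same strand, shares 309 exonic bases with Spp1 and had a mean of 0.143 FPKM.

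Osteopontin is also made by macrophages and osteoclasts, so their markers are given beside it. Of 11 macrophage markers 9 were in the table and 3 tested, with 0 passing in limma and 0 in voom (1 at an unadjusted p below 0.05, Lyz2, lower), and their summed level was 7.16 to 8.56 FPKM in the controls and 6.88 to 7.39 FPKM in conditioned libraries. The highest were Cd14 (mean 3.02 FPKM), Lyz2 (2.24) and Cd68 (1.51). Ptprc, Adgre1 and C1qa had 1, 3 and 2 fragments in all control and 5, 0 and 0 in all conditioned libraries. Of 9 osteoclast markers 7 were in the table and 3 tested, with 0 higher and 2 lower, Ctsk (log2 fold change -0.35) and Itgb3 (-0.19), and Acp5 not passing. Their summed level was 90.4 to 95.4 FPKM in the controls and 73.2 to 76.0 in conditioned libraries, most of it Ctsk, and Ocstamp had 15 and 12 fragments. Of the tested markers of both kinds, Cd14 (log2 fold change 0.12), Cd68 (0.14) and Acp5 (0.18) had higher means with conditioned medium and Lyz2 (-0.40) a lower one, all without passing. The part of these cells in the Spp1 values was not tested.

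Of the osteopontin receptors and processing enzymes, 11 were tested, with 1 higher, 2 lower and 8 not passing, beside 6.53% of all genes called. Itga5, the fibronectin receptor chain, rose by 0.23, a call that held in each of 16 other settings. Itgb3, the partner of integrin alpha V in the vitronectin receptor, fell by 0.19, and the thrombin receptor gene Thbd fell by 0.17. Itgb3 lost its call without control replicate 2 or 3 or any conditioned replicate (adjusted p = 0.057 to 0.11), and Thbd without any 1 of the 6 libraries (0.067 to 0.17). The highest not passing were Itgb1 (384 ± 7.64 and 399 ± 5.28 FPKM) and Itgb5 (165 ± 2.84 and 179 ± 3.16 FPKM), and Itgb5 passed in voom with no level filter (adjusted p = 0.016). In the list for coupling to osteoclasts, 5 were tested, with Csf1, the macrophage growth factor, higher by 0.23 and Il34, which shares its receptor, lower by 0.34. Il34 lost its call without control replicate 2 or any conditioned replicate (0.052 to 0.074). Tnfrsf11b, the decoy receptor osteoprotegerin, had 10.8 ± 0.0679 and 12.0 ± 0.272 FPKM (adjusted p = 0.11 in limma), and Lgr4 had 18.7 ± 1.19 and 19.0 ± 0.253 FPKM.

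Spp1 (chromosome 5 from 104435118 to 104441050) and Ibsp (from 104299171 to 104311469) lie in the same cluster of genes for acidic bone and tooth proteins. Ibsp encodes bone sialoprotein, a marker of mature osteoblasts. It had 1, 1 and 0 fragments in the controls and 0, 0 and 1 in conditioned replicates, at or under the 3 fragments that a count of 0 allows, so no fold is given. Dmp1, 233 kb before Spp1 and named after its values were seen, had 10 fragments in the controls and 3 in conditioned libraries. Sparcl1, 356 kb before Spp1, had 0.994 ± 0.133 and 1.43 ± 0.0582 FPKM (log2 fold change 0.29, adjusted p = 0.085 in limma), and without the trend and robust prior its adjusted p was 0.046. Pkd2, whose gene starts 24.3 kb beyond that of Spp1, had 18.8 ± 1.16 and 19.9 ± 0.487 FPKM (adjusted p = 0.48). Of the 3 genes tested here, Spp1 was called, while Sparcl1 and Pkd2, which flank the cluster, did not pass. Over all genes tested, 6.53% were called.

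**Figure D4:**
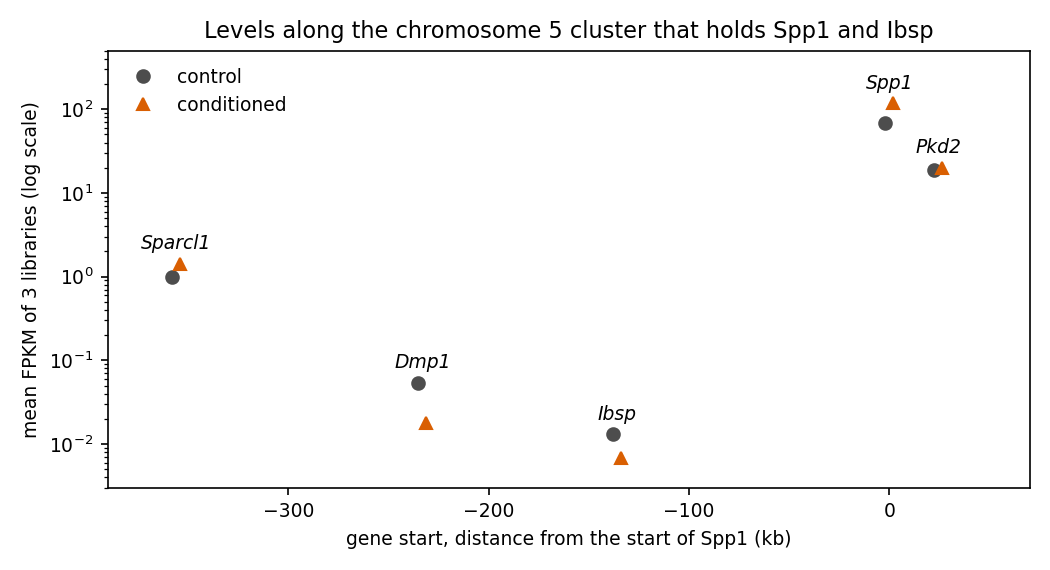
Mean FPKM (log axis) of 3 control libraries (grey circles) and 3 conditioned libraries (orange triangles) for genes of the chromosome 5 cluster and its flanks, against the distance of the gene start from that of Spp1 in kb. Spp1 stands at 68.3 and 118 FPKM while Ibsp, 136 kb before it, stands near 0.01 FPKM.

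Of 20 bone matrix and mineral genes listed, 17 were in the table and 9 tested, with Spp1 higher, 3 lower and 5 not passing. The list median was -0.29, and 6.53% of all genes tested were called. Col1a1 and Col1a2, which bone shares with tendon, fell by 0.33 and 0.36, and Sparc, a collagen-binding glycoprotein of bone, by 0.28. Pdpn (144 ± 1.73 and 137 ± 1.83 FPKM) and the proteoglycan gene Omd (4.05 ± 0.663 and 3.05 ± 0.154 FPKM) did not pass. Without control replicate 2, Omd had a log2 fold change of -0.43 and an adjusted p of 0.019. Of 8 osteoblast markers in the table Alpl was the only one tested, ahead of Sp7 and Ifitm5 (mean 0.397 FPKM), and the osteocalcin genes Bglap and Bglap2, named after their values were seen, had 4 and 6 fragments in the controls and 1 and 6 in conditioned libraries.

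The promoter of Spp1 is shown because it had the largest change among the 4 tested members, and because RUNX proteins are long known to act on bone genes through the letters ACCACA. The 250 bases before its first RefSeq start (chr5:104434861-104435110, GRCm38.p6, plus strand) hold this motif once, in capitals, beginning 128 bases before the start.
Spp1: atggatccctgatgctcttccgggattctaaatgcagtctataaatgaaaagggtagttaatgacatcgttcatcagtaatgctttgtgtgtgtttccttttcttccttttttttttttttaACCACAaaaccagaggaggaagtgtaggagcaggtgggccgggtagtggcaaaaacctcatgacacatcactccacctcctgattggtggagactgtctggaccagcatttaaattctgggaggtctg

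RefSeq promoters were matched for 8 of the 10 genes (not Sox9 or Sp7), with 15 starts in all. On both strands, ACCACA (or TGTGGT) was found in 5 of these 15 windows, in 4 genes, and in 14.0% of 32851 promoter windows of the same length. The sites are shown with the bases around them, on the strand of the gene, with the motif in capitals, so that the one in Spp1 can be compared with those of Runx2, which did not pass, and of Hapln1 and Sox6, which were not tested. By GENCODE coordinates the Spp1 site lies before the gene. The other sites lie inside their genes, beyond the outermost start, so they are not like in position.
Spp1, chr5:104434971-104435000: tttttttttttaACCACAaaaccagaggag
Runx2, chr17:44814690-44814719: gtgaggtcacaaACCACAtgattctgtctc
Hapln1, chr13:89540464-89540493: tgggtgggggctTGTGGTtgggcctgctgc
Sox6, chr7:115846186-115846215: tactccctcctcTGTGGTgtgaatgtgcaa
Sox6, chr7:115824786-115824815: actgtgaggccgACCACAaagctccactgt

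Other motifs were sought on both strands of the same windows. AACAAT, a SOX motif, was in 1 of the 15 windows, of Sox6, and in 9.42% of all windows. The interferon response element (GAAA, any 2 bases, GAAA) was in 1, that of Spp1, beginning 157 bases before the start, and in 2.98% of all windows. The GC box GGGCGG was in 3 windows, of Alpl, Acan and Sox6 (32.7% of all), and the AP-1 motif TGANTCA in 0 (6.75% of all). None of these motifs overlapped the RUNX match in Spp1. These matches describe the letters only, and the windows without a match say nothing of the factors.

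**Figure D5:**
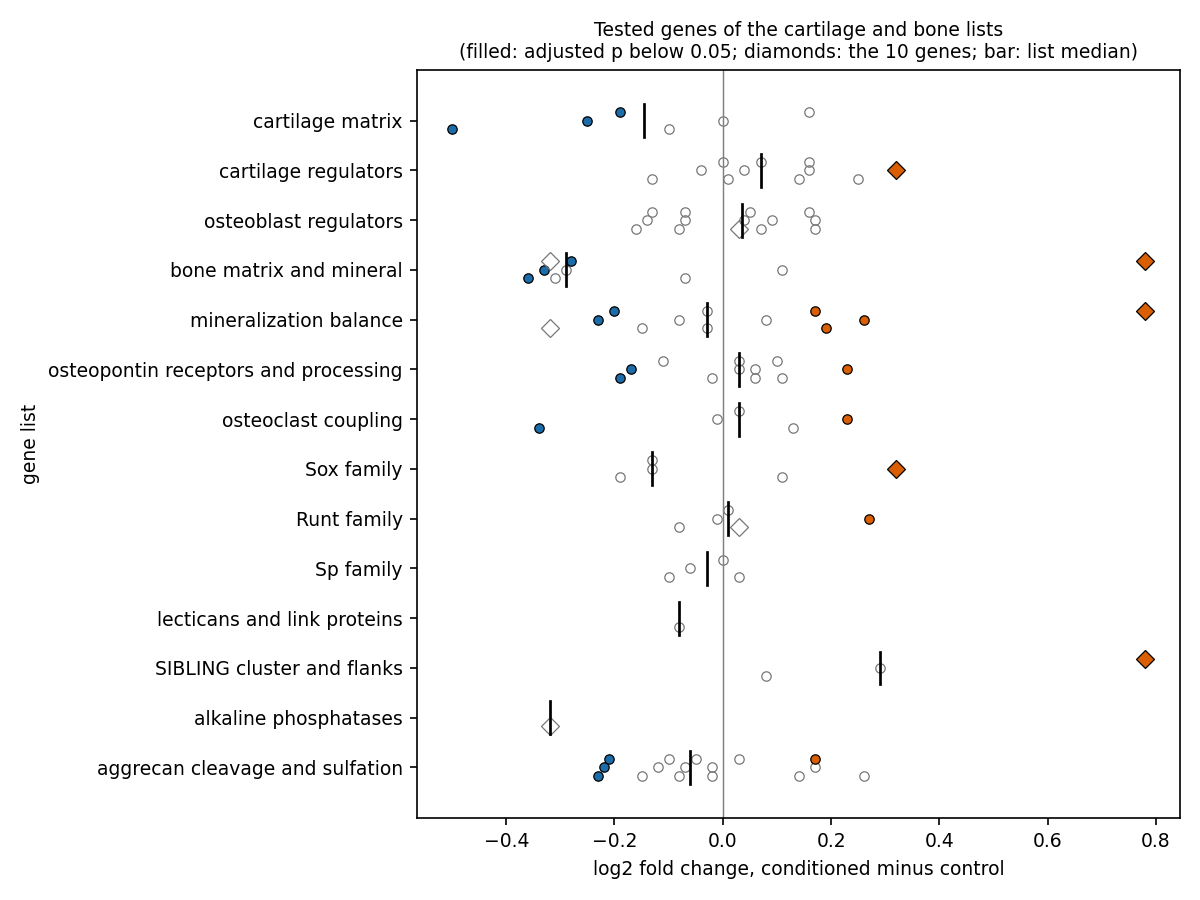
Log2 fold change, conditioned minus control, of the tested genes of 14 lists, filled orange (higher) or blue (lower) where the adjusted p was below 0.05 in limma, with the 10 genes as diamonds and a bar at each list median. Spp1 (0.78) and Sox9 (0.32) lie at the right edge of their lists, while Col2a1 (-0.50) lies farthest left.

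Across the 14 lists, which held 180 genes, 154 were in the table and 95 were tested, with 9 higher, 14 lower and 72 not passing, beside 6.53% of all genes called. The lists were drawn up with earlier results of these data known. The count called fell from 23 to 12 without control replicate 2, to 12 without conditioned replicate 1 or 2, and to 11 without conditioned replicate 3. The genes that kept direction and call in every one of the 16 other settings numbered 11: Spp1, Sox9, Col2a1, Col11a1, Sparc, Col1a1, Col1a2, Anxa5, Itga5, Csf1 and Adamts1. The other 12 lost their call in 5 to 10 of the 16 settings, and 0 changed direction. In the plot of tested genes by list, Col2a1, Col11a1, Col1a1 and Col1a2 are among the genes called lower.

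Most markers of further cell types were below the level filter, but the summed levels of some types were not low. Control sums were 41.0 to 44.2 FPKM for muscle, 34.9 to 35.6 for mural and 25.9 to 29.6 for DRG neuron markers. In the same order, conditioned sums were 41.0 to 44.4, 36.4 to 37.2 and 20.5 to 22.3 FPKM. Most of the muscle sum was Acta1 (mean 39.2 FPKM in control and 40.0 in conditioned libraries), and 6 of the 8 muscle markers listed were absent. Most of the DRG neuron sum was Tubb3 and Uchl1, as the 7 untested neuron markers had means of at most 0.718 FPKM. Of 8 glial markers in the table, 1 was tested (S100b, mean 1.96 FPKM, not passing), ahead of Mbp (0.479) and Fabp7 (0.328), and Sox10 had 0 fragments in the controls and 2 in conditioned libraries. Their summed level was 3.41 to 4.08 FPKM in the controls and 2.25 to 3.48 FPKM in conditioned libraries. Of 9 DRG neuron markers in the table, 2 were tested, Tubb3 lower (-0.43) and Uchl1 not passing, and the next, Isl1, had a mean of 0.718 FPKM. Of 7 endothelial markers, Tek was the only one tested (-0.33, lower), ahead of Egfl7 (mean 0.432 FPKM) and Kdr (0.145), and Pecam1 and Cdh5 had 29 and 9 fragments in the controls and 7 and 5 in conditioned libraries. Of 7 mural markers 4 were tested, with Myh11 higher (0.31) and 3 not passing, among them Notch3 (-0.20) and Cspg4 (0.08). Notch3 passed in voom. Of 2 muscle markers in the table, Acta1 (0.03) and Des (-0.27), 0 passed in limma or voom (1 at an unadjusted p below 0.05, Des). The part of these marker changes in the values above was not tested.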

How the data were processed

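Bulk RNA-seq of sorted tendon cells gave 3 control and 3 conditioned libraries. The deposited values are FPKM computed by the authors. Per the submitters' processing notes, CASAVA, HISAT2 2.0.5 and mm10 were used, without stated roles. For the counting program, annotation, strand setting and filters, nothing is given in the sources used here. Values were whole multiples of 1 fragment for all 24413 genes (tolerance 0.01 fragment), which gave the fragments per gene. For 23574 genes this used the merged exon length in GENCODE M21. For the rest the shortest length that gave whole fragments was taken, so there whole values hold by construction. The authors' divisors were not whole numbers, and differed from the recovered totals by -0.0086% to 1.08%. Such counts cover counting error only.

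Tests took the genes whose mean over the 6 libraries was 1 FPKM or more, as log2(FPKM + 1) with limma 3.58.1 in R 4.3.3 (trend, robust prior, two-sided, no covariate), with Benjamini-Hochberg adjustment over the 11678 genes and a threshold of 0.05. The script was tested on simulated data. Voom on recovered fragments was added after the table was seen. Other settings changed the pseudocount, level filter, scaling, prior or replicate block, or left out 1 library. Voom used the same genes, or every gene with at least 10 fragments in all. Coordinates come from GENCODE M21 (mm10) and promoters from RefSeq (GRCm38.p6). Exact tests of 3 against 3 cannot go below p = 0.1 and were not used. Other steps used pandas 2.3.3, numpy 2.4.6 and matplotlib 3.10.9 under Python 3.11.15.

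The members and gene lists were chosen with earlier results of these data known. Named are the 10 genes, every list gene past the threshold and the 2 highest not past it in each list, and the 3 highest markers of each cell type, with exceptions marked in the text or given as fragments.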

Additional observations from a re-analysis of the deposited data

How the results depend on the processing

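Each result was recomputed in 16 other settings. The number of the 10 genes called was 2 in all settings on FPKM, including each left-out library (2 to 2), and 3 in both voom fits, where Alpl was added. The count over all genes was 763, with 492 when no low filter was used, 390 with the replicate block, 1246 by voom with no low filter, and 394 to 678 with 1 library left out. The count over the 14 lists was 23, with 15 without a low filter, 11 with the replicate block and 11 to 19 with 1 library left out. Quantile normalization moved the share of higher calls over all genes from 61.9% to 52.2%. Of genes that passed in no setting, these turned direction: Runx2 (-0.02 without conditioned replicate 3), Atf4 (-0.02 with quantile normalization), Zfp219 (-0.01 without control replicate 1) and Lgr4 (-0.02 without control replicate 3). With 1 library left out, the range was -0.02 to 0.09 for Runx2, -0.01 to 0.09 for Zfp219 and -0.02 to 0.06 for Lgr4. Prg4 (-0.02 to 0.03), Zeb1 (-0.05 to 0.07) and Sp1 (-0.03 to 0.03) were at 0.00 and took both signs over the settings. The cause was not tested. No pairing of the samples by replicate number was seen. Deviations of same-numbered libraries had correlations of -0.0948, -0.00803 and -0.0476, and no library correlated best with its own number. With 3 libraries per group and no animal labels, these values cannot exclude pairing. With the replicate block, Spp1 had an adjusted p of 8.4e-04 and Sox9 of 0.026. Depth limits Acan, Hapln1, Sox5, Sox6, Sp7 and Ibsp, for which only large changes could have been seen.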

Other observations

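Genes of late, hypertrophic cartilage were partly present; they are named here after their values were seen. Col10a1, the collagen of hypertrophic chondrocytes, had 12.3 ± 0.563 FPKM without and 11.1 ± 0.459 FPKM with conditioned medium (adjusted p = 0.22 in limma), well above Sp7 and Ibsp in the same libraries. Mmp13, a collagenase of such cells and of osteoblasts, had 1.91 ± 0.285 and 2.45 ± 0.194 FPKM (adjusted p = 0.16). Mef2c, a factor acting on both, was below the level filter with 425 and 365 fragments. Neither tested gene passed. Of genes that restrain mineral, Mgp, encoding matrix Gla protein, stood at 102 ± 7.98 and 91.4 ± 3.48 FPKM (adjusted p = 0.21). The osteopontin receptor genes Cd44 (43.9 ± 2.15 and 43.3 ± 1.23 FPKM) and Itgav (33.5 ± 1.35 and 34.9 ± 1.10 FPKM) did not pass either.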
